A study of Mus musculus with 14 samples.

Results

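The 62 genes described here are the replication-dependent histone genes of the mouse, taken by symbol from the 21883 protein-coding genes of the RefSeq table of GRCm38.p6: every gene named H2ac, H2bc, H3c or H4c with a number, and H1f1 to H1f5. They comprise 5 genes for the linker histone H1, 17 for H2A, 16 for H2B, 12 for H3 and 12 for H4. On chromosome 13, 52 of them lie in 4 blocks, and the other 10 lie in 1 block on chromosome 3. Peaks were read at these genes from ChIP-seq lists of the transcription factors GATA2 and RUNX1 and of polymerase II carrying phosphate on serine 2 of its tail (S2P), a mark of elongating polymerase.

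The cells were G1ER, a mouse erythroblast line without endogenous GATA1 that carries a GATA1 fusion switched on by estradiol. They were either Chd7-/- (KO), lacking a chromatin remodelling ATPase, or wild type (WT). The labels name estradiol, given for 48 hours, for a differentiation assay, and do not say whether cells used for ChIP received it, nor whether the KO cells are 1 clone. Peak names in both KO factor lists carry the tag CHD7KO-E4. GATA2 and RUNX1 had 1 library per genotype, and the 2 S2P replicates of a genotype gave 1 list. Each target thus had 1 KO list and 1 WT list, no spread between replicates could be measured, no test was made, and every difference compares 2 lists.

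Replication-dependent histone genes supply the bulk of new histones while DNA is copied, and are switched on together as cells enter S phase. They lack introns and their messages are not polyadenylated: a stem-loop near the end is bound by SLBP and the transcript is cut by a dedicated machinery. NPAT, which gathers at the gene clusters in histone locus bodies, is their shared coactivator. GATA2 and RUNX1 are transcription factors of blood progenitors.

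In KO the lists held 80611 GATA2, 35281 RUNX1 and 165206 S2P peaks. In WT they held 68199, 28952 and 163620. Values below are fragments at the summit of a peak, recovered from the deposited fold enrichment and p-value. No summit exceeded 282 fragments in KO and 286 in WT for either factor, or 296 in KO and 298 in WT for S2P. These ceilings equal 2 times the smallest peak width of each list, so differences between summits near them are understated. Chd7 itself carried no S2P peak in either list, so the lists do not check its deletion. All 10 erythroblast markers had GATA2 and RUNX1 peaks in both genotypes and S2P covered at least 50% of 7 of them in KO and 6 in WT. None of the 4 lymphoid markers was covered or had RUNX1, but Rag1 and Pax5 each had GATA2, at 20 fragments in KO and 16 in WT. The granulocyte genes Mpo and Elane had no peak of any target. The mast cell gene Cpa3 was covered for 39.8% of its length in KO and 54.5% in WT, with GATA2 at 280 and 284 fragments. The myeloid marker Csf1r was covered for 10.9% in KO and 11.6% in WT and had no factor peak.

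S2P lay over nearly every histone gene and did so at the ceiling. Peaks covered at least 50% of the length of 56 members in the KO list and 58 in the WT list, against 16.2% of all protein-coding genes in KO and 15.8% in WT. The whole gene was covered in both lists for 52 members. Genome-wide only 327 genes in KO and 325 in WT were wholly covered, so that the histone genes made up 15.9% and 16.0% of them. Among protein-coding genes of at most 1 kb, S2P covered at least 50% of 98 in KO and 94 in WT, and 56 of these were members in each genotype. A peak summit within 2 kb was present at 60 members in KO and 58 in WT, with a background of 49.2% in KO and 48.8% in WT. H4c18 and H2bc11 had such a summit in KO alone and no member had one in WT alone, against 1.45% and 1.03% of all genes. Both genes were wholly under S2P peaks in both lists, so this difference concerns the place of the summit.

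The strongest S2P peak overlapping a member had a median of 295 fragments in KO and 297 in WT. It came within 5% of the ceiling at 55 members in each genotype, including all H1, H3 and H4 genes. Of all S2P peaks that high, 38 of 277 in KO and 37 of 222 in WT had their summit at a histone gene. Local background was also higher there, with a median of 36.4 fragments in KO and 37.5 in WT at S2P peaks of the members, against 10.4 and 10.3 over the whole lists, and its part in the result was not tested. Below the ceiling were H2bc14 with 241 and 244 fragments, H2ac22 with 277 and 282, and H2ac20 and H2ac21 with 278 and 277, in KO and WT. H2bc21, a long model, lay under a peak of 52 fragments in KO and 44 in WT. The testis-expressed pair H2bc1 and H2ac1 lies in a block of its own. H2bc1 lay under a peak of 190 fragments in each genotype, and H2ac1 was under no S2P peak in either.

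Along the 54 members of at most 1 kb with an annotated start, S2P began at the promoter and ran past the end of the gene. At the start itself 92.6% of these genes were under an S2P peak in both genotypes, and 250 bp inside the gene 98.1% were. Upstream neighbours often carry their own S2P, and 150 bp before the start 59.3% of genes in each genotype were under a peak. At 500 bp before the start the share was 66.7% in KO and 64.8% in WT, and at 1000 bp before it 55.6% and 61.1%. At 1000 bp downstream, beyond the end of every gene in this set, 92.6% remained under a peak in both lists. At 2000 bp the share was 37.0% in KO and 44.4% in WT, and at 3000 bp it was 22.2% in KO and 33.3% in WT.

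**Figure D1:**
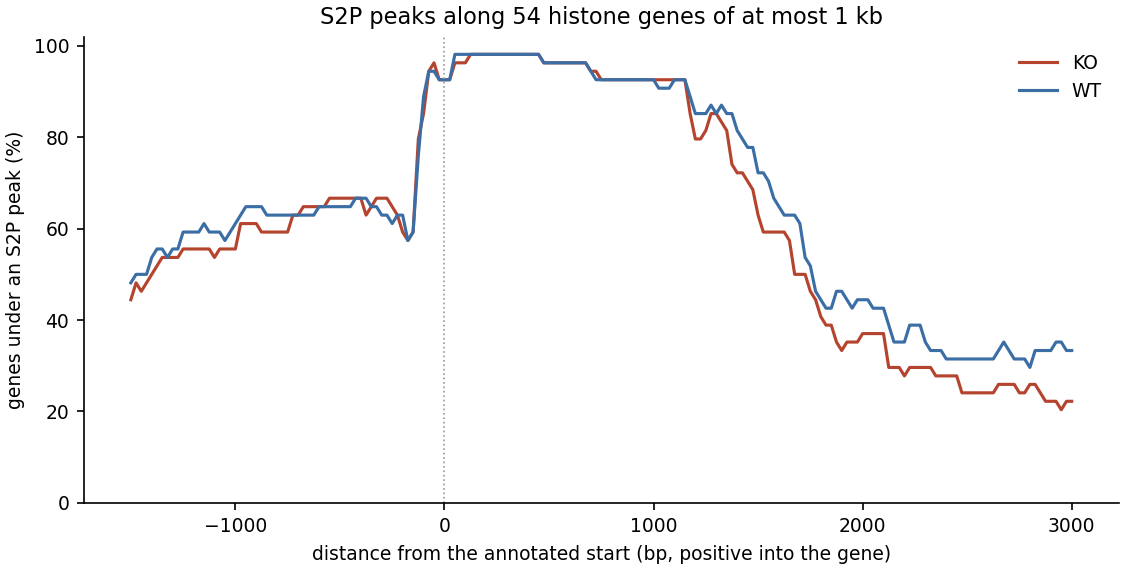
Share of the 54 histone genes of at most 1 kb under an S2P peak (y axis, %) by distance from the annotated start (x axis, bp), in the KO and WT lists. The lines run together over the gene, at 98.1% 250 bp from the start, and the KO line lies lower downstream, at 22.2% against 33.3% at 3000 bp. Upstream of the start neither line is lower throughout.

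S2P reached less far past the histone genes in the KO list. The peak over a gene extended a median of 1091 bp beyond the annotated end in KO and 1223 bp in WT, over 53 genes with a peak in both. The KO extension was shorter at 41 of them and longer at 11, with a median difference of −37 bp. KO was thus shorter at 77.4% of the histone genes, against 41.3% of 2182 other covered genes, of which 902 were shorter and 1270 longer. Among 129 other covered genes of at most 2 kb, 61 were shorter in KO and 67 longer. Neighbouring histone genes often lie under the same S2P peak, so the 53 genes are not independent. These counts had no minimum difference, and the quartiles of the difference at the histone genes were −235 and −1 bp. Edges a few bp apart thus count on either side, as at H4c18 with −1 bp and H2ac23 with 4 bp. At some genes the difference was a peak split in 1 list: H4c8 had 1085 bp in KO and 5882 bp in WT, and H2ac13 had 2495 bp in KO and 575 bp in WT. With S2P peaks joined over gaps of up to 500 bp, an alternative chosen after seeing the data, H4c8 had 5764 bp in KO and 6218 bp in WT and H2ac13 had 2495 and 2529. So joined, the extension was shorter in KO at 45 of the 53 histone genes and longer at 8, against 45.2% of the other covered genes shorter. Of the 129 other covered genes of at most 2 kb, 68 were then shorter in KO and 61 longer. Among the histone genes the largest difference was then at H1f2, with 2205 bp in KO and 8597 bp in WT. Upstream of the start, with peaks as deposited, S2P reached less far in KO at 33 of the 53 genes and farther at 16. The median difference there was −10 bp, with medians of 736 bp in KO and 241 bp in WT. The whole peak was narrower in KO at 41 genes and wider at 12, but this width includes the downstream part. Under a peak shared by neighbours, the upstream edge of 1 gene can be the downstream edge of another. Upstream and downstream reach were therefore not told apart. Upstream reach was not read at other genes.

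Counted in bases, the KO list was also lower around the members. Within 2 kb of members of at most 1 kb, S2P peaks covered 100 kb in KO and 106 kb in WT, of 174 kb. Between 2 and 10 kb from them, peaks covered 6.56 kb in KO and 16.4 kb in WT, of 247 kb. This ground falls into 10 stretches, of which 9 were covered less in KO and 1 equally. The stretch around H2ac6 and H2bc4 had the largest difference, with 1.59 kb in KO and 5.37 kb in WT, and without it the totals were 4.97 kb in KO and 11.0 kb in WT. Over the genome the KO list covered more, 123 Mb against 115 Mb in WT. Peaks without a partner were weak: 13 WT peaks at members had no overlapping KO peak, at a median of 37 fragments, whereas 1 KO peak, of 33 fragments at H4c12, had no WT partner. Several of these WT peaks lay along the long model of H2bc4, described below. Of the 13, only 7 were not nearer to a member without a single annotated start. Of S2P peaks at members, 98.2% of 57 in KO (exact 95% interval 90.6 to 100.0) and 80.3% of 66 in WT (68.7 to 89.1) overlapped a peak of the other genotype, against 73.7% and 80.4% over the whole lists. These intervals, like those below, cover counting error only.

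Coverage of the gene itself differed by at least 10 points at 3 members, all lower in KO, against 1.98% of all genes. None was at least 10 points higher in KO, against 2.89% of all genes, but few members could rise so far. Wholly covered in both lists were 52 members, and H2bc1, H3c14 and H3c15 had under 10 points of room in WT. These counts therefore do not show a direction. H2bc4 was covered for 25.4% of its length in KO and 57.6% in WT. H2bc1 was covered for 74.3% in KO and 91.0% in WT, and H2bc23 for 43.4% in KO and 55.9% in WT. Coverage was equal in both lists at 53 members, the 52 wholly covered ones and H2ac1, which was under no S2P peak. The remaining differences were all under 10 points: H2bc6 had 6.79% in KO and 8.77% in WT, H2bc22 7.61% and 8.27%, H3c7 69.9% and 70.8%, H2bc21 15.2% and 6.64%, H3c14 93.2% and 92.8%, and H3c15 95.8% and 95.7%.

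H2bc4 and H2bc23, like H2bc22, H2bc6 and H2bc21, are H2B genes with annotated models longer than 1 kb, in which the histone sequence takes up only a short stretch. None of these 5 models reached 50% coverage in KO, and 2 did in WT. At H2bc4, whose model spans 8282 bp (chr13:23684199-23692480), the gene's lower end lay under a common S2P peak of 3757 bp and 292 fragments in KO and 3702 bp and 295 fragments in WT. That stretch ended at the same place in both lists, 1741 and 1746 bp from the lower end. Beyond it, still inside the model, the KO list held 2 S2P peaks, of 33 and 27 fragments. The WT list held 6 there, of 55, 37, 45, 34, 33 and 33 fragments. The lower coverage of H2bc4 in KO was thus in weak peaks beyond the histone domain, where each summit carried between 27 and 55 fragments. GATA2 peaks at H2bc4 were present in both lists, the strongest of 159 fragments in KO and 121 in WT at 859 and 865 bp from the lower end, and another of 76 in KO and 60 in WT at 5504 and 5494 bp.

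**Figure D2:**
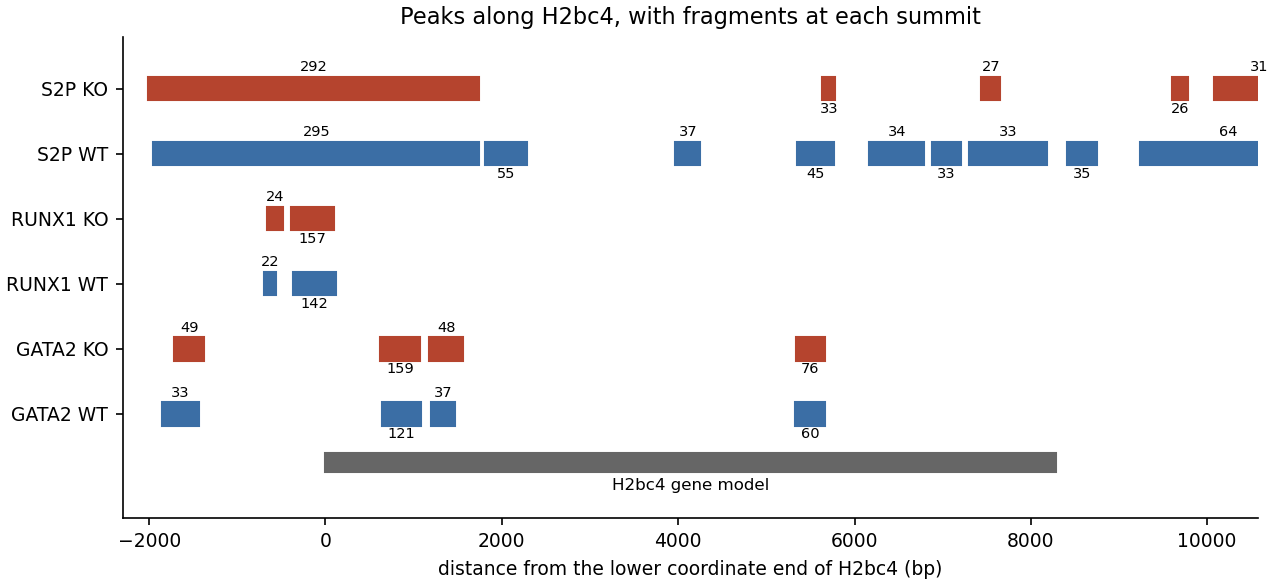
Peaks of the 6 lists along H2bc4 (x axis, bp from the lower coordinate end of the gene; rows, target and genotype, bars drawn to scale with the fragments at each summit). The common S2P peak of 292 fragments in KO and 295 in WT covers the lower end in both lists, and 2 further S2P peaks in KO stand against 6 in WT inside the rest of the model.

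RUNX1 was found at the starts of almost all the histone genes. A RUNX1 summit lay in or within 2 kb of 60 members in KO and 59 in WT, against 49.9% of all protein-coding genes in KO and 47.0% in WT. Short genes offer little room for a summit, and among the other 1520 genes of at most 1 kb only 42 in KO and 43 in WT had one. Of the 36 of those that were also covered by S2P in both lists, 20 had a RUNX1 summit in KO and 19 in WT. The 2 members without RUNX1 in either list were the testis pair H2bc1 and H2ac1, which also had no GATA2 peak. H4c11 had RUNX1 in KO alone, at 32 fragments, and no member had it in WT alone, against backgrounds of 4.22% in KO alone and 1.33% in WT alone.

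Summits sat close to the start. Of the 56 members with 1 annotated start, 53 had a RUNX1 summit within 250 bp of it in each genotype, which is 94.6%. Over all genes with 1 annotated start the share was 35.2% in KO and 32.1% in WT, and over the other genes covered by S2P in both lists it was 79.8% in KO and 75.1% in WT. The summit at the members lay at a median of −66 bp in KO and −51 bp in WT, where a minus sign means before the start. Over all genes with such a summit the medians were −50 bp in KO and −55 bp in WT. H2B summits were farthest upstream, at a median of −107 bp in KO and −114 bp in WT, where many H2B genes share a promoter with a divergent H2A gene. H1 summits lay at medians of 17.5 bp in KO and 39 bp in WT, inside the gene. Of the RUNX1 peaks at members, 87.8% of 82 in KO and 89.1% of 64 in WT had their summit inside an S2P peak.

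**Figure D3:**
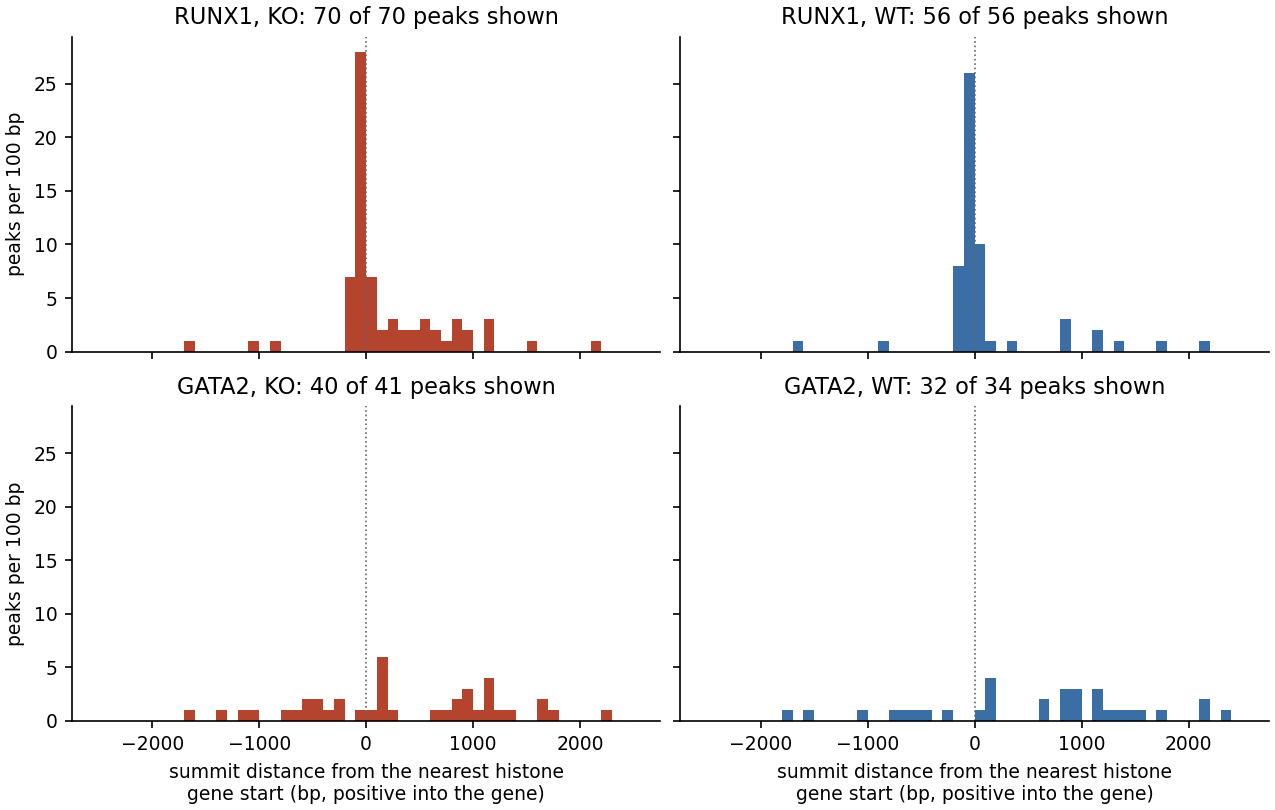
Distance of RUNX1 (top) and GATA2 (bottom) summits at members from the nearest histone gene start (x axis, bp, positive into the gene; y axis, peaks per 100 bp), KO left and WT right. Peaks nearer to a member with no annotated start are left out. RUNX1 summits gather within 250 bp of the start, 45 of 70 in KO and 45 of 56 in WT, and GATA2 summits are spread, with 10 of 41 and 5 of 34 there.

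The strongest RUNX1 summits were in promoters that serve an H2A gene. H2ac7 and H2bc7, which point away from each other with their starts 174 bp apart, shared the highest summit, of 207 fragments in KO (exact Poisson 95% interval 179.8 to 237) and 172 in WT (147 to 199.7). H3c4 next to them was within 2 kb of the same peak, and at its own start had 58 in KO and 50 in WT. H2ac19 on chromosome 3, with H3c15 within 2 kb, had 181 fragments in KO and 161 in WT. H2ac6 and H2bc4 shared a summit of 157 in KO and 142 in WT, H2ac15 and H2bc15 one of 146 in KO and 115 in WT, and H2ac18 and H3c14 one of 144 in KO and 123 in WT. H2bc9 and H3c7 had a summit of 131 in KO and 119 in WT close by. Among H4 genes the highest at their own starts were H4c1 with 132 in KO and 98 in WT, H4c4 with 103 and 72, and H4c8 with 83 and 73. H4c18 lay within 2 kb of a summit of 113 in KO and 95 in WT at the promoter of H2ac24, and had 62 in KO and 39 in WT at its own start. H4c17 lay within 2 kb of one of 112 in KO and 99 in WT at the promoter of H2ac23, and had 47 in KO and 31 in WT at its own start. Within 250 bp of the start the median was 112.5 in KO and 96.5 in WT at H2A genes, 110.5 and 96.5 at H2B, 54 and 43.5 at H3, 62 and 45.5 at H4 and 41.5 and 37 at H1. Summits shared by an H2A and an H2B gene enter both classes, so those medians are not separate. Within 2 kb, H1 genes had medians of 62 in KO and 40 in WT: H1f1 had 75 in KO and 62 in WT, H1f5 68 and 67, H1f3 62 and 39, and H1f4 41 and 40.

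Among members with 1 annotated start there were 9 divergent pairs of an H2A and an H2B gene. Their starts lay 164 to 281 bp apart, with a median of 180 bp. A RUNX1 summit lay between or within 250 bp of the starts of 8 pairs in both genotypes, the testis pair being the exception. GATA2 was there at 1 pair in KO, H2bc23 and H2ac23 with 35 fragments, and at none in WT. The 16 pair members with RUNX1 at the start share 8 summits, each entered for both genes, and had a median of 124 fragments in KO and 98 in WT. The 37 with RUNX1 among the 38 members outside such pairs had 60 in KO and 47 in WT. H2bc4 and H2bc21 have no single annotated start and were not paired, though their models lie next to the starts of H2ac6 and H2ac20. Those H2A genes were therefore counted outside pairs, with 157 and 52 fragments in KO and 142 and 40 in WT.

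Promoter sequences of 5 members, 250 bases before to 50 after the annotated start, are given to show what lies under their RUNX1 summits. H2bc7, H2ac19 and H2ac6 had the strongest RUNX1 summits, and H2ac6, H4c1 and H1f4 were among those with the strongest GATA2 summits nearby. The sequences are those of RefSeq GRCm38.p6, 5′ to 3′ on the gene's own strand, which is the minus strand for all 5. Capitals mark 7 motifs, searched on both strands, none of which contains another. The TATA box, which positions the start of transcription, was read as TATAAA. The NF-Y box was read as CCAAT. The motif of the RUNX factors was read as TGTGGT, and that of the GATA factors, among them GATA2, as GATAA. The octamer, bound by the POU factor that Pou2f1 encodes, was read as ATTTGCAT. The H1 box, an element of linker histone promoters, was read as AAACACA, and the GC box bound by SP1 as GGGCGG. The windows lie at chr13:23574158-23574457 for H2bc7, chr3:96240325-96240624 for H2ac19, chr13:23683910-23684209 for H2ac6, chr13:23761200-23761499 for H4c1 and chr13:23622509-23622808 for H1f4.
H2bc7: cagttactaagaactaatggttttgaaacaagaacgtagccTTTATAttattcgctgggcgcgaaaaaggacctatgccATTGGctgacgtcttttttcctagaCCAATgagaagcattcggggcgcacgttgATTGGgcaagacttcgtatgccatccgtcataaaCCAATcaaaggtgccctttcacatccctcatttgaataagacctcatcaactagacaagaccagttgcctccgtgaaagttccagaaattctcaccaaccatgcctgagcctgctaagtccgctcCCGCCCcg
H2ac19: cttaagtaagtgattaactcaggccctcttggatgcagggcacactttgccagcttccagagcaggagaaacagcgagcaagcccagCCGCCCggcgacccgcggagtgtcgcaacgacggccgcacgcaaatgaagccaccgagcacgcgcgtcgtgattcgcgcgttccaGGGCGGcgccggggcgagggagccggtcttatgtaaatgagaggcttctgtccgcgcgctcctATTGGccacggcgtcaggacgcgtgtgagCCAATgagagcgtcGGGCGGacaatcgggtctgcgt
H2ac6: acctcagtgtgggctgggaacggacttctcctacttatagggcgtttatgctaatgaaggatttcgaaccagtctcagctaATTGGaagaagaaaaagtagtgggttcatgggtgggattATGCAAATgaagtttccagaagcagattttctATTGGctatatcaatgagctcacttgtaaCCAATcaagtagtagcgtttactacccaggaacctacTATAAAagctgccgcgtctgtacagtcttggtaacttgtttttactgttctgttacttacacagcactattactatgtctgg
H4c1: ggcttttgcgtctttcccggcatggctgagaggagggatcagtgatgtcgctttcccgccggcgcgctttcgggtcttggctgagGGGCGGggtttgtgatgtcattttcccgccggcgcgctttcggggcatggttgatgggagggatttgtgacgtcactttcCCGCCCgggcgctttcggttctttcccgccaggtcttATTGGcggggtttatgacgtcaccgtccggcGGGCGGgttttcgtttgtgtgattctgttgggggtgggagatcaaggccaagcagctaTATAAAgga
H1f4: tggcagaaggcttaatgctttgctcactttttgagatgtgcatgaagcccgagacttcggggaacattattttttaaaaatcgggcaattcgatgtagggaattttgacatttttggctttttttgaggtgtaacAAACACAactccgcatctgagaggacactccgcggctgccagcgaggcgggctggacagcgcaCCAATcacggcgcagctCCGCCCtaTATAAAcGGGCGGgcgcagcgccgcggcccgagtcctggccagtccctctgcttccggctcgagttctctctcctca

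In H2bc7 the RUNX1 summit lay at −127 bp in KO and −123 bp in WT, among 4 CCAAT matches that begin between −171 and −83. In H2ac6 it lay at −88 in KO and −116 in WT, with an octamer match at −130, CCAAT matches at −169, −98 and −69, and a TATA box at −32. The H1f4 window held the H1 box at −115, CCAAT at −52 and a TATA box at −27, and a RUNX1 summit of 34 fragments at 20 bp in KO and of 40 at 40 bp in WT. In H2ac19 the RUNX1 summit lay just inside the gene, at 5 bp in KO and 10 bp in WT, between CCAAT matches that begin at −15 and 15. In H4c1 the TATA box began at 42, after the annotated start, so distances from the RefSeq start are approximate there. None of the 5 windows held TGTGGT or GATAA, and none held a GATA2 summit.

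Promoter entries were found for 57 of the 62 members, 58 in all since H2bc6 has 2. A TATA box was present in 58.6% of them against 13.6% of all 32851 promoters, CCAAT in 86.2% against 37.4%, and the octamer in 22.4% against 1.74%. The octamer was held by 6 of 17 H2A and 7 of 15 H2B windows and by none of the H1, H3 or H4 windows, and the H1 box by 4 of 5 H1 windows. CCAAT was in every H1, H2A, H2B and H3 window and in 3 of 11 H4 windows. TGTGGT was in 10.3% of member windows and 16.8% of all promoters, and GATAA in 22.4% and 25.4%. A RUNX1 summit lay inside 51 of the 58 windows in each genotype, and 6 of those 51 held TGTGGT in KO and 5 in WT. H2A and H2B windows of a divergent pair overlap, so they do not count as separate sequences.

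GATA2 was called at fewer members than RUNX1, and farther from their starts. A GATA2 summit lay in or within 2 kb of 46 members in KO and 42 in WT, against 55.1% of all genes in KO and 50.8% in WT. Over the other 1520 genes of at most 1 kb the share was 6.38% in KO and 5.72% in WT, and over the 36 of these covered by S2P in both lists 44.4% in KO and 36.1% in WT. For 6 members no single start is annotated, and 17 GATA2 peaks in each genotype lay nearer to one of these than to any annotated start. Of the other 41 GATA2 peaks in KO and 34 in WT, 16 and 16 had their summit more than 1000 bp from the nearest histone start, against 7 of 70 RUNX1 peaks in KO and 6 of 56 in WT. Of all 58 GATA2 peaks at members in KO and 51 in WT, 62.1% and 62.7% had their summit inside an S2P peak.

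The strongest GATA2 summits lay beside the genes or inside a long model. H2ac6 and H2bc4 shared a summit of 159 fragments in KO and 121 in WT, at −1099 bp in KO and −1105 bp in WT from the start of H2ac6. H2bc6, whose model spans 37455 bp, had 150 fragments in KO and 138 in WT at a summit well inside the model. H4c1 and H3c1 shared one of 140 in KO and 121 in WT, at −313 bp in KO and −320 bp in WT from the start of H4c1. H1f4 had 110 fragments in KO and 87 in WT, and H1f5 had 101 and 79, both past the end of the gene. Lower values included those of H3c6 with 80 in KO and 49 in WT, H2ac15 and H2bc15 with 77 and 64, H3c3 and H2bc3 with 75 and 47, H3c7 with 69 and 50, H1f1 with 59 and 56, H4c14 with 59 and 44, H2ac23 and H4c17 with 58 and 35, and H2ac24 and H4c18 with 48 and 45.

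**Figure D4:**
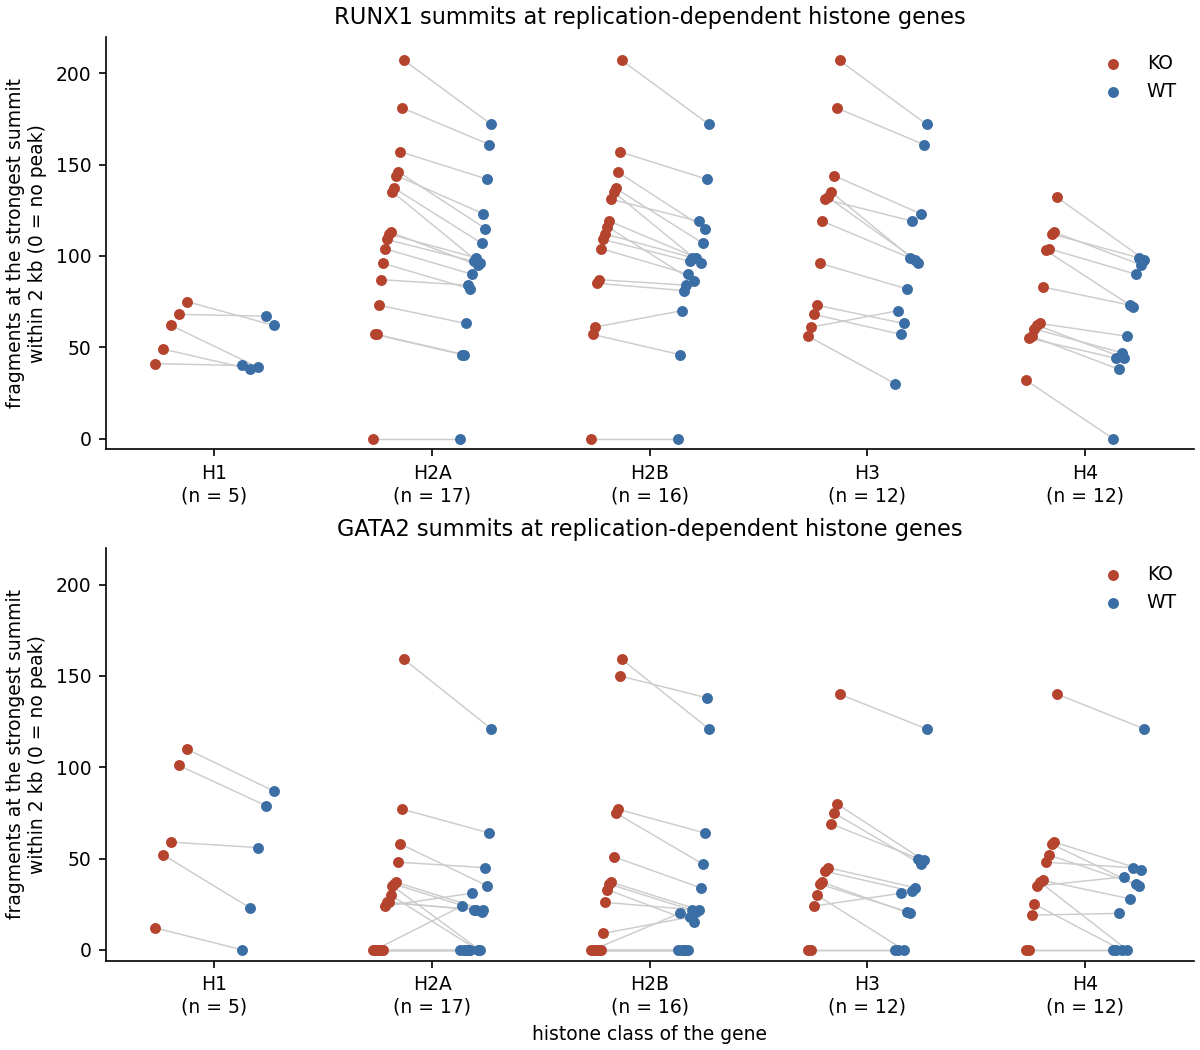
Fragments at the strongest RUNX1 (top) and GATA2 (bottom) summit within 2 kb of each member (y axis; 0 where there was no peak), by histone class, KO left and WT right with a line joining the 2 values of a gene. RUNX1 is present in every class and reaches 207 in KO and 172 in WT, in some cases at a neighbour's promoter, as at H3c4, and GATA2 is present at 46 of the 62 members in KO and 42 in WT.

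Where GATA2 did lie near a start, the gene was usually an H4 gene. GATA2 summits fell inside the H4 gene itself at 8 of the 12 H4 members in KO and 5 in WT. They lay at medians of 119 bp after the start in KO and 105 bp in WT, with 25 to 52 fragments in KO and 25 to 45 in WT. Their deposited fold enrichment was low, from 2.40 to 4.92 in KO and from 2.98 to 5.77 in WT. The medians over the whole GATA2 lists were 6.21 in KO and 6.29 in WT. The part of local background in these calls was not tested. H4c12 had 52 fragments in KO and 36 in WT, H4c17 51 and 34, H4c18 48 and 45, H4c6 38 and 25, and H4c3 35 and 40. H4c1, H4c9 and H4c11 had a summit inside the gene in KO alone, of 39, 37 and 25 fragments. Of the 45 other members of at most 1 kb, H3c6 alone had a GATA2 summit inside the gene, in both lists. H4 genes encode the same protein, but their coding sequences were not compared here. How reads that match several copies were placed is not given in the sources used.

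Some GATA2 peaks were called in 1 genotype alone. At 6 members a GATA2 summit was called in KO alone: H4c9 with 37 fragments, H2ac19 with 35, H2ac4 and H3c2 with a shared 30, H4c11 with 25 and H1f2 with 12. At 2 members it was called in WT alone, H2ac12 with 24 and H2bc12 with 20. The background is 7.06% of all genes in KO alone and 2.82% in WT alone, and all these summits were weaker than the median of the members' shared KO peaks, 48 fragments. Of all GATA2 peaks at members, 77.6% of 58 in KO (64.7 to 87.5) and 88.2% of 51 in WT (76.1 to 95.6) overlapped a peak of the other genotype, against 68.8% and 81.5% over the whole lists.

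Summits shared by both genotypes were mostly higher in KO, as they were over the whole lists. On the log2 scale, after division by the lowest background of each list, the median KO over WT was 0.29 for GATA2 at members, with 36 of 45 summits higher. Over all 53508 shared GATA2 summits it was 0.11, and near other S2P-covered genes 0.19. For RUNX1 it was 0.24 at members, with 50 of 58 higher, against 0.19 over all 23560 shared summits and 0.25 near other covered genes. By the deposited fold enrichment the RUNX1 median was 0.13 at members and 0.14 over all shared summits, and the GATA2 median 0.21 and 0.10. Local background at GATA2 peaks of the members had a median of 5.22 fragments in KO and 4.31 in WT, against 2.68 and 2.76 over the whole lists, and at RUNX1 peaks 6.86 in KO and 6.40 in WT, against 5.41 and 5.68. Its part in these differences was not tested. The largest GATA2 differences were at H1f3, with 52 fragments in KO and 23 in WT, and at H2bc9 and H3c7, with 33 and 15. The largest RUNX1 differences were at H3c11, with 56 in KO and 30 in WT, and H1f5, with 28 and 15. Chromatin came from whole cultures, so a weaker summit in every cell and a summit in fewer cells cannot be told apart.

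**Figure D5:**
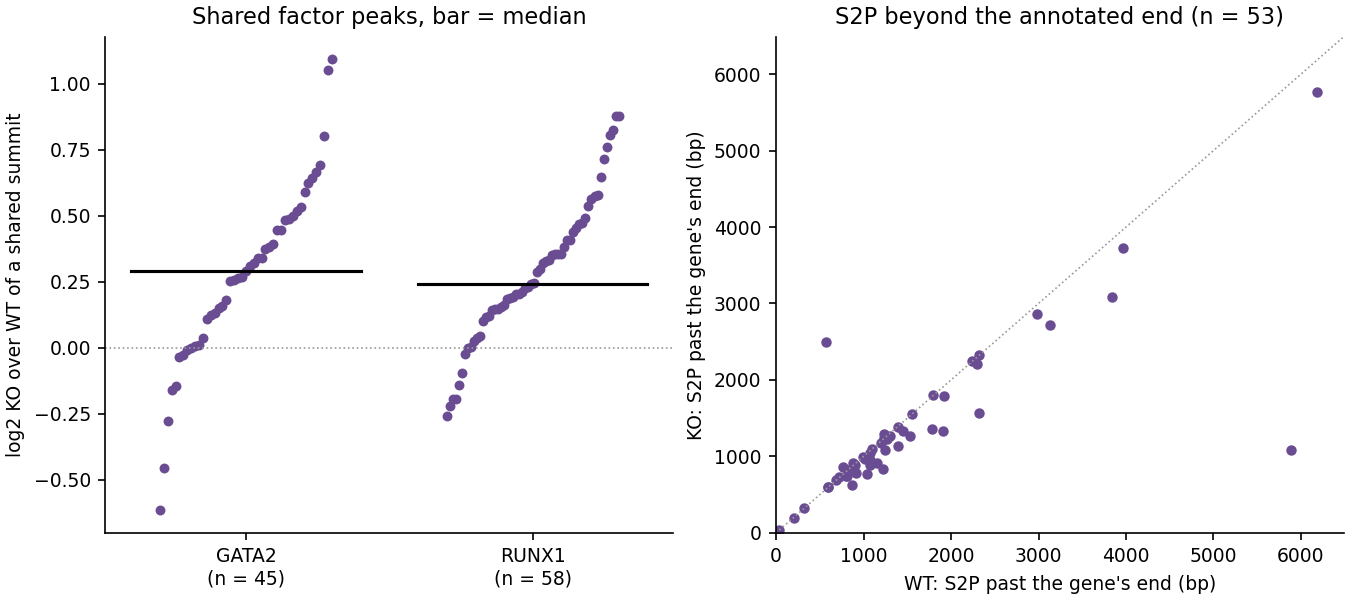
Left, log2 KO over WT of each GATA2 and RUNX1 summit at members that is shared by both lists (points; bar, median); right, bp of S2P past the annotated end in KO (y axis) and WT (x axis) for 53 genes. Medians are 0.29 and 0.24, and 41 of the 53 genes lie below the line of equal values.

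The KO list also held 20 RUNX1 peaks at members with no WT partner, against 1 WT peak with no KO partner. They had 13 to 43 fragments with a median of 21, and of the 17 nearest to an annotated histone start, 15 had their summit between 251 and 1200 bp downstream of it. S2P peaks held 18 of the 20. Of RUNX1 peaks at members, 75.6% in KO (64.9 to 84.4) and 98.4% in WT (91.6 to 99.96) had a partner in the other list, against 69.6% and 86.6% over the whole lists.

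The blocks hold few other genes, and away from the short histone genes factor summits were sparser. In the 4 blocks with more than 2 members, stretches within 2 kb of a member of at most 1 kb held 4.44 RUNX1 summits per 10 kb in KO and 3.59 in WT, and the rest of the blocks 0.506 in KO and 0.350 in WT. For GATA2 the values were 2.74 in KO and 2.35 in WT near members and 1.36 in KO and 1.17 in WT in the rest. The rest includes parts of the long H2B models, such as H2bc6, so it is not only ground between histone genes. These densities were not set against that of the genome. The 2 other genes inside the blocks, H1f6, a testis H1, and Hfe, which encodes a regulator of iron uptake, were not covered by S2P for 50% of their length in either list.

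Histone genes that are also expressed outside S phase were read in the same way. Of 12 such replication-independent genes, 8 had RUNX1 in both genotypes, 8 in KO and 6 in WT had GATA2, and 7 in each were covered by S2P. The GATA2 shares, 66.7% in KO and 50.0% in WT, were near those of all genes, 55.1% and 50.8%. Over all genes RUNX1 was at 49.9% in KO and 47.0% in WT, and S2P covered 16.2% and 15.8%. H2ax, which encodes the H2A variant phosphorylated at DNA breaks, was wholly covered, with RUNX1 at 154 fragments in KO and 160 in WT. H2aj had 197 RUNX1 fragments in KO and 151 in WT, and H2az2 195 in KO and 197 in WT. Cenpa, the centromeric H3, had 154 RUNX1 fragments in KO and 107 in WT and the highest GATA2 summit, of 102 in KO and 45 in WT, followed by H2az2 with 49 and 44. H2ax had 37 GATA2 fragments in KO and 29 in WT, and H3f3a 22 and 30. GATA2 was called in KO alone at H2az1, with 30 fragments, and at H1f10, with 11, against 7.06% of all genes. H1f0, H3f3c and Macroh2a2 had no peak of any target in either list.

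Of 27 genes that serve histone expression, 26 had RUNX1 in KO and 27 in WT, and 27 had GATA2 in KO and 23 in WT. S2P covered 20 of them in KO and 18 in WT, against 16.2% and 15.8% of all genes. Over all genes covered by S2P in both lists, RUNX1 was at 93.9% in KO and 89.9% in WT, and GATA2 at 80.5% in KO and 74.5% in WT. Slbp, whose product binds the histone stem-loop, had 261 RUNX1 fragments in KO, the most of these genes in that list, and 215 in WT. Cpsf2, a subunit of the cleavage complex, had 240 in KO and 225 in WT, and Cdk2, the kinase that phosphorylates NPAT, 238 and 209. The highest GATA2 summits were at Srrt with 195 in KO and 150 in WT, Cpsf3, the endonuclease of the cleavage complex, with 191 in both, and Pou2f1 with 191 and 198. Npat had 54 RUNX1 fragments in KO and 46 in WT and 140 GATA2 fragments in KO and 138 in WT. GATA2 was called in KO alone at Cdk2, Lsm11, Gon4l and Cstf2, with 12 to 21 fragments, and RUNX1 in WT alone at Gon4l, with 33. The shares of all genes called so were 7.06% for GATA2 and 1.33% for RUNX1.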

How the data were processed

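The 6 peak lists, GATA2, RUNX1 and S2P in KO and WT cells, were analysed, and input samples were not used. The submitters' processing notes name Bowtie2 2.2.1, MACS2 2.1.0 and GRCm38, but neither their roles nor their settings. Each list was deposited by the authors with no header, so columns were identified from their values: a score that is 10 times the −log10 q, the fold enrichment (ratio of pileup to local background at the summit), the −log10 p-value and −log10 q-value, and the summit offset. The lists end at a q of about 0.05.

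From the deposited fold and −log10 p the whole number of fragments at each summit and its background were recovered under the caller's Poisson model. This worked at 100% of summits in every list (tolerance 0.005 in −log10 p), and the KO S2P pileup needed a scale of 0.961. The recovery was also tested on simulated peaks, but their backgrounds stayed below the S2P list medians of 10.4 fragments in KO and 10.3 in WT. That simulation therefore does not cover most S2P peaks at the members.

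A peak was assigned to a gene by its summit, inside the gene or up to 2 kb from either end. Overlap of 1 bp made a peak shared, and fold differences used peaks with exactly 1 partner. S2P coverage had no length limit. Members and gene lists were chosen with earlier results of these data known. Genes were named by rule: the 3 strongest summits per class and list, members with a peak in 1 genotype alone, the 6 largest falls and rises of coverage, H2bc4, and the top 3 and single-genotype genes of the other lists. Further values, such as those of H4 genes, H2bc14 and Npat, were chosen after they were seen. Strand came from the promoter table, for 56 members. Protein identity was planned and not run, because no protein table was among the references used. Python 3, numpy and pandas were used.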

Additional observations from a re-analysis of the deposited data

How the results depend on the processing

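Of 89 recomputed values of 23 results, 80 stayed within the limits set for a change: 1.5 times for a count, the 95% interval for a share, 5 points for a median coverage and 0.1 for a log2 median. With 1 kb added on either side of each gene, median S2P coverage of the members was 83.6% in KO and 83.2% in WT, against 100% in each for the gene alone. At a limit of 20 points 1 member was lower in KO. At a limit of 5 points, or with only peaks at a q of at most 0.001, 1 member, H2bc21, was higher in KO. The GATA2 median became 0.18 when centred on all shared summits. The RUNX1 median became 0.052 when centred so, and 0.13 by deposited fold enrichment. The S2P median of −0.02 at the members, taken mostly at the ceiling, became 0.18 by fold enrichment, and the cause was not tested. Alternatives chosen after seeing the data moved no count beyond the limit: adding the 4 genes with older Hist names outside the symbol rule, keeping genes of at most 1 kb, and joining S2P peaks over gaps of up to 500 bp. Leaving out a replicate could not be done, since each target and genotype has 1 list. No paired analysis was possible because no result comes from a test and each group has 1 list. Depth limits weak peaks: the lists end at their threshold, so a peak absent from 1 list may lie just under it.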

Other observations

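Genes outside the symbol rule whose older names mark them as clustered histone genes were read in the same way. H4f16, an H4 gene, was wholly under S2P peaks in both lists, with 157 RUNX1 fragments in KO and 134 in WT and 96 GATA2 fragments in KO and 65 in WT. H2aw was wholly covered, with 110 RUNX1 fragments in KO and 86 in WT and no GATA2 peak. H4bc24 was covered for 47.1% of its length in KO and 64.1% in WT, and H2bu2 had no peak of any target in either list.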
